A study of Homo sapiens with 2 samples.

Results

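The connexin genes examined here were GJB5 and GJA4 on chromosome 1, GJB2 and GJB6 on chromosome 13, GJA1 on chromosome 6 and GJC1 on chromosome 17. They were taken by name, 6 of the 19970 protein-coding genes that GENCODE release 44 places on chromosomes 1 to 22 and X of hg38. Every ATAC-seq peak (a stretch of open chromatin cut by the Tn5 transposase) inside a gene, or within 20 kb of any of its annotated transcript starts, was counted as that gene's. On those chromosomes No gRNA had 67868 peaks, of which these windows held 11, and All gRNA had 68238, of which they held 15. Peaks of the libraries that overlapped by at least 1 bp were counted as 1 site, which gave 16 sites.

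The cells were SUM159, an established claudin-low, triple-negative human breast cancer line with a mesenchymal phenotype. Both populations were transduced with a lentiviral vector carrying dCas9-KRAB, a catalytically dead Cas9 fused to a transcriptional repressor domain, under the hUbC promoter, and were selected with puromycin. No gRNA cells carried the vector without a targeting guide, and All gRNA cells carried it with 4 guides against the promoter of ZEB1, expressed from U6. The comparison asked how the connexin loci differ in accessibility when ZEB1 is the target of dCas9-KRAB. Each group was 1 library, so no difference below has a replicate check, and none was given a p-value.

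The libraries held 74757 and 75217 peaks in all, for No gRNA and All gRNA respectively, and the All gRNA depth recovered from the peak statistics was 0.743 times that of No gRNA. Within 1000 bp of the main ZEB1 start, No gRNA had 2 peaks and All gRNA had 0, which matches the labels. VIM, the mesenchymal filament vimentin, had a peak at its start in both libraries, while EPCAM and CDH1, which define epithelial cells, had 0 in both. The connexin peaks are given by their pileup, the number of Tn5 cut ends whose 150 bp extension covers the summit. Beside each pileup stands its exact Poisson 95% interval, and a ratio is that of the All gRNA pileup to the No gRNA pileup after scaling by the 0.743 depth ratio. These intervals cover counting error only, and would be too narrow if both ends of a fragment were counted, which the sources used here do not state.

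Connexins are 4-pass membrane proteins that assemble into hexameric hemichannels, and hemichannels of neighbouring cells dock to form gap junction channels through which ions and small metabolites pass. GJB2 encodes Cx26 and GJB6 encodes Cx30, which often pair in the same channels of the inner ear and skin. GJB5 encodes Cx31.1, a connexin of stratified epithelia and placenta. GJA4 encodes Cx37, a connexin of endothelium and oocytes, GJA1 encodes Cx43, the most widely expressed member of the family, and GJC1 encodes Cx45, a connexin of the heart conduction system and vessel wall. ZEB1 is a zinc finger repressor that binds E-boxes of the CAGGTG type, and many of its known targets are genes of epithelial junctions.

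The windows below are 201 bp of the hg38 plus strand centred on the summit, and capitals mark the letters of a searched word: the E-boxes CAGGTG and CAGCTG, the AP-1 word TGACTCA, the TEAD word GGAATG and the GC box GGGCGG, each on either strand. The first is the highest connexin site in both libraries, between GJB2 and GJA3, and the second is the GJA1 intronic site called in All gRNA only.
between GJB2 and GJA3, chr13:20175003-20175203: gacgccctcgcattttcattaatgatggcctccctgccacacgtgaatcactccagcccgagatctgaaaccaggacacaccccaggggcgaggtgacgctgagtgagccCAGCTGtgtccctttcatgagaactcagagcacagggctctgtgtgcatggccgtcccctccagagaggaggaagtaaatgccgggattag
GJA1 intron, chr6:121438350-121438550: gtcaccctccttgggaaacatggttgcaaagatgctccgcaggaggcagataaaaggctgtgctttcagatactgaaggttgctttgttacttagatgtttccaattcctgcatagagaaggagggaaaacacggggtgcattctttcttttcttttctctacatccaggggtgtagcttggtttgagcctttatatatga
The chromosome 13 window holds a CAGCTG E-box about 10 bp from the summit, and its GC content is 57.7% with 8 CpG dinucleotides. The GJA1 window holds none of the words, with 44.3% GC and 2 CpG dinucleotides, against a median GC content of 47.8% over all All gRNA peaks.

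The sites that differed most between the libraries lay on chromosome 1, around GJB5. Chromatin was called open just inside that gene in All gRNA and was not called in No gRNA. The gene (ENSG00000189280.3, plus strand, chr1:34755047-34758512) has 1 annotated start, and the All gRNA peak was 319 bp wide with its summit 457 bp after that start, in the GJB5 intron. Its pileup was 27 (17.8 to 39.3), its fold over local background 11.6 and its −log10 q 22.8, above 77.8% of All gRNA peaks. At the No gRNA depth that pileup would be 36.3, and a pileup of 8 would have been enough on the same background to enter the No gRNA list. Among the 16211 peaks called in All gRNA only it ranked 46 by −log10 q.

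The GJB5 window held 3 peaks called in All gRNA only, of which the weakest lay 17532 bp before the start. It had a pileup of 8 (3.45 to 15.8), or 10.8 at the No gRNA depth against the 5 needed there, and ranked 7712 of 16211. So the peak inside GJB5 stood well above the height at which No gRNA would have listed it, and the far upstream peak stood nearer to that height. A stretch of 22 bp at the far upstream summit occurs 154 times in hg38, and whether reads from other copies contributed to that peak was not tested.

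At 1 upstream site of GJB5 the order was the other way. This site, 12148 bp before the start, was called in both libraries, in No gRNA with a pileup of 28 (18.6 to 40.5) and a width of 310 bp, and in All gRNA with a pileup of 9 (4.12 to 17.1) and a width of 242 bp. The summits lay 9 bp apart. The ratio was 0.433 (0.180 to 0.943), the lowest of the 10 connexin sites called in both libraries and the 1 called lower, by a rule that asked for a change of 2-fold with an interval excluding 1. That call was lost when the depth was taken from the median ratio of all shared peaks, where the ratio was 0.466 (0.194 to 1.02).

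The peak nearest to GJA4 (ENSG00000187513.9, plus strand, chr1:34792999-34795747) was shared, and its summit lay 6306 bp before the gene in No gRNA and 6326 bp in All gRNA. It spanned chr1:34786587-34786818 with a pileup of 11 (5.49 to 19.7) in No gRNA and chr1:34786599-34786811 with a pileup of 12 (6.20 to 21.0) in All gRNA, a ratio of 1.47 (0.593 to 3.67) that included 1. GJA4 therefore had no peak at its start in either library, and no site in its window was called in 1 library alone.

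In the windows of GJB5 and GJA4 together, 4 No gRNA peaks covered 969 bp and 7 All gRNA peaks covered 2102 bp. Of the 7 sites, 4 were called in both libraries, 3 in All gRNA only and 0 in No gRNA only. Over all genes, 39.4% had at least 1 peak called in All gRNA only in their window and 44.2% had at least 1 called in No gRNA only, so the presence of such a peak near a connexin is by itself common. GJB5 had 3 peaks called in All gRNA only and 0 called in No gRNA only. With it, 200 of 19970 genes, 1.00%, had 3 or more of the first kind and 0 of the second, and the opposite pattern was met by 363 genes, 1.82%. This count was looked up after the peaks had been seen.

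Peak coverage differed most between the libraries in the window of GJB5. Peaks covered 310 bp of its 40001 bp window in No gRNA and 1272 bp in All gRNA, and this difference of 962 bp exceeded that of 99.5% of the 18040 genes with a peak in either library, whose median difference was −135 bp. With the 50000 strongest peaks of each library it was 488 bp. For GJA4 coverage was 659 bp and 830 bp, a difference of 171 bp, above 81.7% of genes. That difference was 19 bp with a 10 kb window or with peaks of −log10 q of at least 5, 265 bp with the 50000 strongest peaks, and 962 bp with a 50 kb window.

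On chromosome 13 the libraries shared all sites of GJB2 and the pileups were lower in All gRNA. The gene (ENSG00000165474.8, minus strand, chr13:20187463-20192938) had no peak at its main start. Its intron held a peak at chr13:20190510-20190934 in No gRNA, with a pileup of 20 (12.2 to 30.9), and at chr13:20190565-20190892 in All gRNA, with a pileup of 11 (5.49 to 19.7). The ratio was 0.740 (0.320 to 1.62), so a difference was not detectable at this depth.

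The strongest peak of any of the 6 genes lay 17835 bp past the main GJB2 start, between GJB2 and GJA3, the gene of the lens connexin Cx46. No gRNA had a pileup of 87 (69.7 to 107) over chr13:20174896-20175322 and All gRNA had 40 (28.6 to 54.5) over chr13:20174935-20175302, with the summits at the same base. The ratio was 0.619 (0.414 to 0.910), which excluded 1 but stayed short of the 2-fold rule, and with the median ratio of shared peaks as depth it was 0.667 (0.447 to 0.980). By −log10 q it exceeded 94.9% of the peaks of No gRNA and 91.3% of those of All gRNA. Its sequence, with the CAGCTG E-box, is the first of the pair printed above.

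GJB6 (ENSG00000121742.19, minus strand, chr13:20221962-20232365) had 0 peaks in its 46683 bp window in either library. The peak nearest to its main start was the GJB2 intronic one, 41570 bp away in No gRNA and 41588 bp in All gRNA. A window without any peak was found for 1930 of 19970 genes, 9.66%. The 300 bp RefSeq promoters of the pair on GRCh38.p14 differ in base composition. That of GJB2 spans its main start and is 71.7% GC with 33 CpG dinucleotides. That of GJB6, chr13:20230929-20231228, lies inside the gene, past its main start at 20232319, and is 51.3% GC with 2. The median over 35116 promoters was 58.7% and 14. Peaks of the GJB2 window covered 852 bp in No gRNA and 696 bp in All gRNA, a difference of −156 bp that was close to the median of all genes and above 47.6% of them. It was −97 bp with a 10 kb window and −352 bp with a 50 kb window.

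The chromosome 6 gene GJA1 (ENSG00000152661.9, plus strand, chr6:121435595-121449727) had a peak at its start in both libraries and a second one in All gRNA alone. At the start, No gRNA had a pileup of 27 (17.8 to 39.3) over chr6:121435541-121435800, and All gRNA had 14 (7.65 to 23.5) over chr6:121435543-121435865. The ratio of 0.698 (0.338 to 1.38) included 1, and the summits lay 47 bp and 65 bp after the main start, in the 5′ UTR. The start peak was thus called in both libraries and its height did not differ beyond counting error.

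The All gRNA peak inside GJA1 was among the weaker ones called in that library only. It lay at chr6:121438313-121438598, in an intron, 2804 bp after the main start and 951 bp from an internal start, with a pileup of 9 and a −log10 q of 3.97, rank 11942 of 16211. Scaled to the No gRNA depth it would be 12.1, where 7 would have sufficed for a call. With it, peak coverage of the GJA1 window was 260 bp in No gRNA and 609 bp in All gRNA, a difference of 349 bp, above 92.6% of genes. Without the weaker peaks (−log10 q of at least 5, or the 50000 strongest) the difference was 63 bp. Its sequence is the second of those printed above.

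GJC1 (ENSG00000182963.11, minus strand, chr17:44798448-44830816) had 4 peaks in each library, of which 3 were shared, and it was the only one of the 6 genes with a peak called in No gRNA alone. That peak, at chr17:44830261-44830467 with its summit 35 bp before the main start, had a pileup of 11 (5.49 to 19.7), which would be 8.17 at the All gRNA depth against the 6 needed for a call there, and its −log10 q of 4.77 ranked 13802 of the 16746 No gRNA only peaks. It stands in a CpG-rich stretch of 84.1% GC with 41 CpG dinucleotides. Beside it, a broader peak at chr17:44829350-44830061 in No gRNA (712 bp, pileup 14) faced a narrower one at chr17:44829733-44830040 in All gRNA (308 bp, pileup 9), a ratio of 0.865 (0.330 to 2.15), with the summits 264 bp apart. The peak that All gRNA lacked at the main start was thus a weak one, next to a site called in both libraries.

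Within the GJC1 gene, All gRNA had a strong intronic peak that No gRNA lacked. It was 364 bp wide and lay at −556 bp from an internal start and 16426 bp from the main one, with a pileup of 18 (10.7 to 28.5), a fold of 12.2 and a −log10 q of 19.2, rank 114 of 16211. Scaled up for depth this would be 24.2, where 5 would have been enough for a No gRNA call. A stretch of 23 bp in its summit window occurs 189 times in hg38, and whether reads from other copies contributed to the peak was not tested.

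The other GJC1 sites were shared and close in height. In the intron, No gRNA had a pileup of 10 and All gRNA one of 7, a ratio of 0.942 (0.304 to 2.74). The site past the gene's end, in an intron of the long non-coding RNA ENSG00000267405, had pileups of 34 (23.6 to 47.5) and 33 (22.7 to 46.3), a ratio of 1.31 (0.784 to 2.17). A stretch of 23 bp in its All gRNA summit window occurs 177 times in hg38. Whether reads from other copies contributed to this site was not tested. Peak coverage of the GJC1 window was 1723 bp in No gRNA and 1364 bp in All gRNA, a difference of −359 bp, above 26.2% of genes. It turned to 309 bp with the 50000 strongest peaks and was −859 bp with a 50 kb window.

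**Figure D1:**
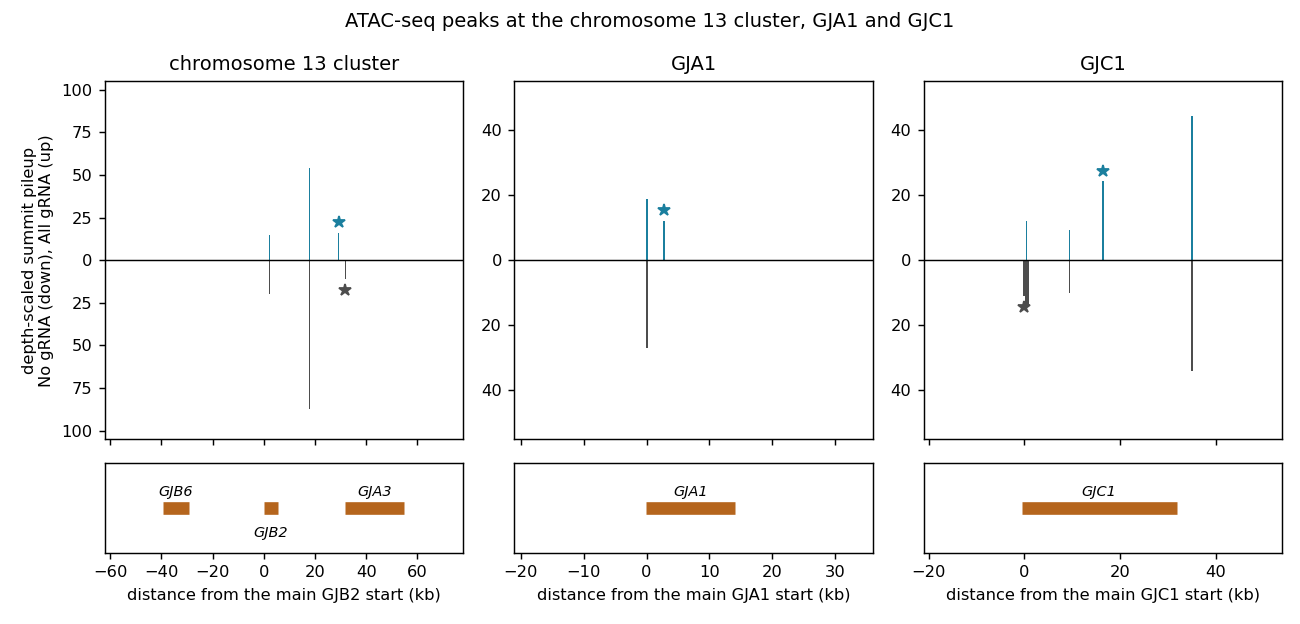
Peaks at the chromosome 13 cluster, GJA1 and GJC1 against distance from the main start of GJB2, GJA1 and GJC1 (kb, positive in the direction of transcription), with All gRNA pileups scaled to the No gRNA depth above the line and No gRNA pileups below it; stars mark peaks called in 1 library alone. GJB6 has no peak, the site between GJB2 and GJA3 reaches 87 in No gRNA, and the starred GJC1 intronic peak reaches 24.2 in All gRNA.

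Set side by side, the 16 sites of the 6 genes comprised 10 called in both libraries, 5 in All gRNA only and 1 in No gRNA only. The 5 peaks were 33.3% of the 15 All gRNA peaks (exact 95% interval 11.8% to 61.6%), where 23.8% of all All gRNA peaks had no No gRNA counterpart. The 1 peak was 9.09% of the 11 No gRNA peaks (0.230% to 41.3%), where the share over all peaks was 24.7%. Both intervals include the share of all peaks, so these counts do not set the connexin genes apart as a group. The intervals treat peaks as independent, which peaks of 1 window need not be, and they hold no variation between libraries. The 5 peaks split as 3 in the GJB5 window and 1 each at GJA1 and GJC1.

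**Figure D2:**
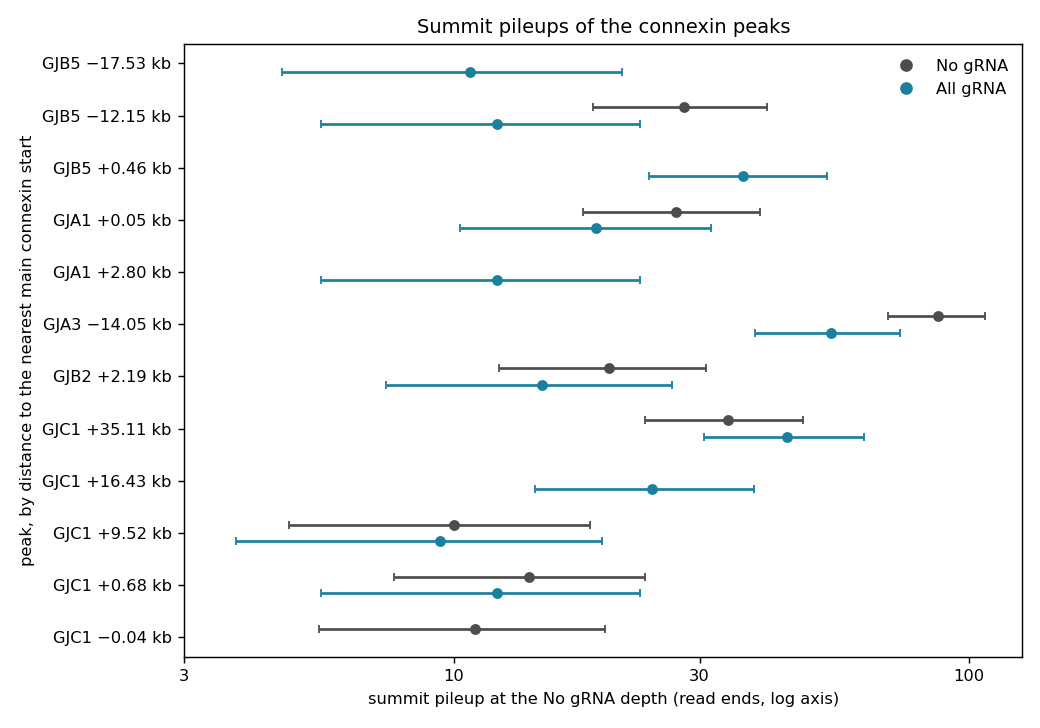
Summit pileups of 12 of the 16 connexin sites at the No gRNA depth (log axis), with points for the pileups and bars for exact Poisson 95% intervals, and sites named by distance to the nearest main connexin start. The highest site called in All gRNA only among those drawn is the one inside GJB5, at 36.3, and the highest of all is the one between GJB2 and GJA3, at 87 in No gRNA.

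At the 10 shared sites the depth-scaled ratios ran from 0.433 to 1.63 with a median of 0.904, next to a median of 0.928 over 48041 shared peaks that pair one to one. Of the 10, 4 were above 1, and of all shared peaks 41.9% were. By the 2-fold rule, 0 connexin sites were called higher and 1 lower, where 2.44% and 3.27% of all shared peaks were. Both shared sites of GJB2 on chromosome 13 were below 1. The peak was wider in All gRNA at 3 of the 10 sites and narrower at 7, and over all peaks the median width was 342 bp in No gRNA and 317 bp in All gRNA.

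**Figure D3:**
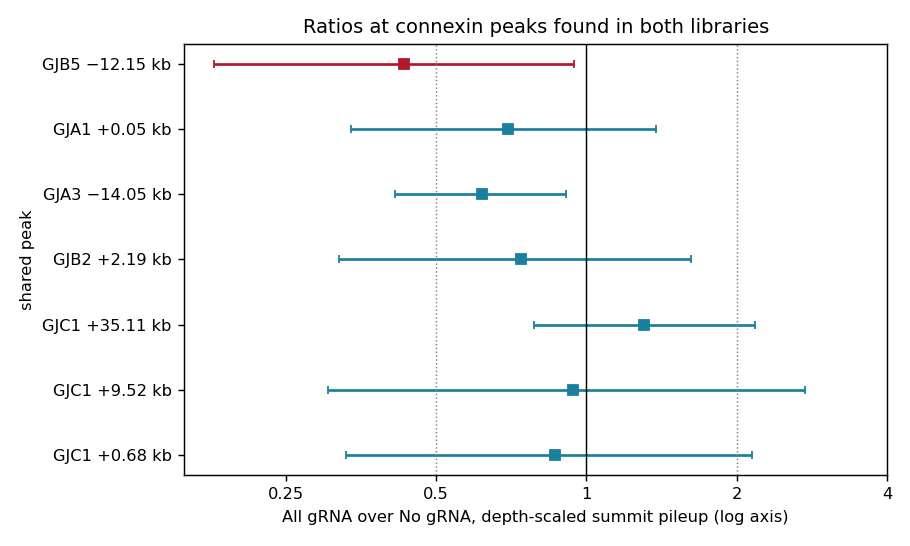
Ratio of All gRNA to depth-scaled No gRNA summit pileup (log axis) at 7 of the 10 connexin sites called in both libraries, with bars for the 95% interval and dotted lines at 2-fold. The site 12148 bp before GJB5, in red, is the 1 that passed the rule, at 0.433, and 5 of the 7 intervals drawn include 1.

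Peak coverage was longer in All gRNA for 3 of the 5 genes with a peak (GJB5, GJA1 and GJA4) and shorter for GJB2 and GJC1, the last of which was longer with the 50000 strongest peaks, where 33.0% of the 18040 genes with a peak had longer coverage in All gRNA. The median difference of the 5 was 171 bp. In total, peaks of the 6 genes covered 3804 bp in No gRNA and 4771 bp in All gRNA. Because these sums rest on what was called in each library, they move with the number of peaks as well as with their width.

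Of the other 15 connexin genes, 12 had a peak in their window, and coverage was longer in All gRNA for 6 and shorter for 6, with a median difference of −15 bp. At least 1 All gRNA only peak fell in the window of 9 of the 15 (against 39.4% of all genes). At least 1 No gRNA only peak fell in that of 4 (against 44.2%). GJA3, the neighbour of GJB2, had a No gRNA only peak 75 bp after its start with a pileup of 11 and an All gRNA only peak 2591 bp before the start with a pileup of 12, and its coverage difference was −255 bp. The window of GJC3, a myelin connexin gene, held a site called lower, with pileups of 66 and 15 and a ratio of 0.306 (0.162 to 0.542). This site was intergenic and 9949 bp from the GJC3 start, and the nearest protein-coding start was that of TRIM4. GJC3 also had an All gRNA only peak 90 bp from its start with a pileup of 14.

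**Figure D4:**
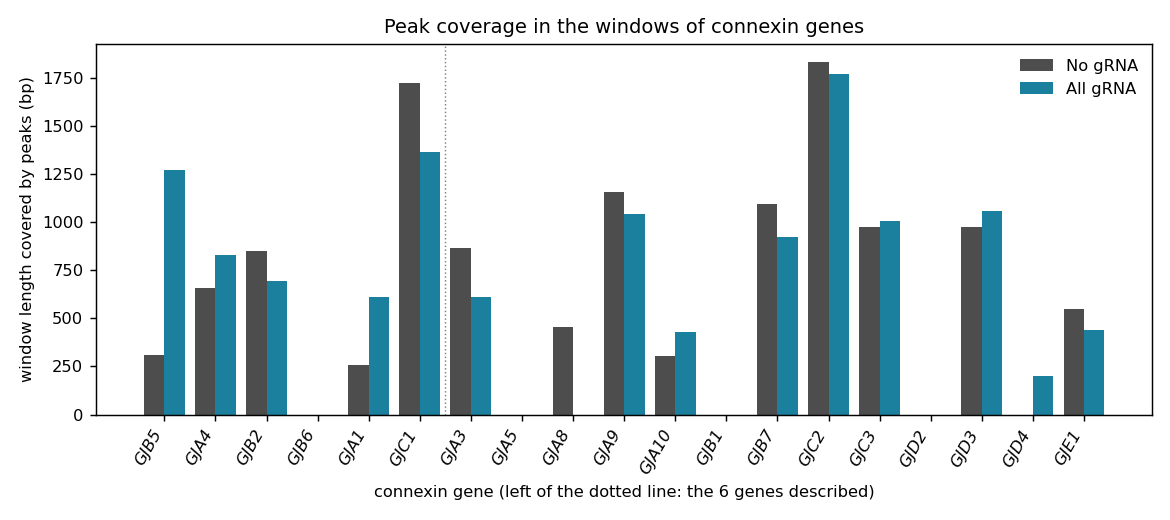
Length of each connexin gene's window covered by peaks (bp) in No gRNA and All gRNA, with the 6 genes described to the left of the dotted line and other genes of the family to the right. GJB5 goes from 310 bp to 1272 bp, and GJB6 has no bar in either library.

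Pannexins form channels of similar architecture in the plasma membrane of single cells. Coverage was shorter in All gRNA for all 3 of their genes, with a median difference of −255 bp. Over the 18040 genes with a peak, 33.0% had longer coverage in All gRNA and the median difference was −135 bp. All gRNA only peaks fell in the windows of 0 of the 3 (against 39.4% of all genes). No gRNA only peaks fell in those of 2 (against 44.2%). At PANX3, 1 shared site was called higher, with pileups of 22 and 40 and a ratio of 2.45 (1.42 to 4.32). PANX2 had a No gRNA only peak 475 bp from its start with a pileup of 8. Of 10 genes whose products bind or regulate connexins at junctions, coverage was longer in All gRNA for 4 and shorter for 6, with a median of −235 bp and with 0 called sites. All gRNA only peaks fell in the windows of 7 of the 10 and No gRNA only peaks in those of 9. Over all genes these shares were 39.4% and 44.2%. Some partner windows were long, 300094 bp for TJP1 and 265068 bp for CDH2, against 40001 bp for GJB5. Whether window length accounts for the counts was not tested. Within 1000 bp of a start, the All gRNA only peaks were those of CDH2 (N-cadherin) with a pileup of 21, NEDD4 (a ubiquitin ligase) with 10, and OCLN (occludin) with 5 and 7. The No gRNA only peaks there were those of CTNNB1 (beta-catenin) with 15 and OCLN with 7. Over whole windows the order could differ from that at the start. CDH2 coverage was 5084 bp in No gRNA and 3148 bp in All gRNA, a difference of −1936 bp, above 0.255% of genes. For CTNNB1 it was 1153 bp and 1558 bp, and for CDH1 654 bp and 1442 bp.

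By peak pattern, GJB5 was 1 of 362 genes with a peak in All gRNA only within 1000 bp of any annotated start, and it was the fifth by All gRNA pileup. The genes nearest to its pileup of 27 were MTFP1 at 29, GSG1 and ENSG00000289766 at 24 (the same peak), MLIP at 23 and DMKN at 22. The likeness is of peak height and presence over 2 libraries, and it does not extend to height over local background. The fold was 11.6 for the GJB5 peak, 4.75 for MTFP1, 4.22 for GSG1, 8.11 for MLIP and 10.4 for DMKN.

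The shares of connexin summits holding a searched word rest on few peaks and are set beside those of all peaks. Within 100 bp of the summit, the ZEB1-type E-box CAGGTG was found at 2 of 15 All gRNA peaks (13.3%, against 13.1% of all All gRNA peaks) and at 1 of 11 No gRNA peaks (9.09%, against 11.6%). The AP-1 word TGACTCA was found at 4 of 15 (26.7%, against 24.3%) and at 3 of 11 (27.3%, against 23.5%). Some All gRNA matches lie in repeated stretches. The CAGGTG far upstream of GJB5 is in one with 154 copies in hg38. The AP-1 words at the GJC1 intronic peak that No gRNA lacked and at the site past the GJC1 end are in stretches with 189 and 177 copies. The GC box GGGCGG was found at 2 of 15 (against 18.9%) and at 4 of 11 (36.4%, against 19.3%). CAGCTG was found at 1 peak in each library, the site between GJB2 and GJA3 (against 12.0% of all All gRNA peaks and 12.4% of all No gRNA peaks), and GGAATG at 1 of 15 and 0 of 11 (14.1% and 14.6%). The grainyhead-type words AACCGGTT and AACAGGTT were found at 0 connexin peaks, and at 0.0616% and 0.583% of all All gRNA peaks.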

How the data were processed

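ATAC-seq libraries of SUM159 cells (1 No gRNA, 1 All gRNA) were sequenced by the authors, who trimmed reads with fastp, aligned them to hg38 with bowtie2, removed mitochondrial, exclusion-list and duplicate reads, and called peaks per library with MACS2 (extension 150 bp, all remaining reads kept, no control). Their versions are not given in the sources used here. The deposited peak lists hold a score, a fold enrichment over local background, −log10 p-values and −log10 q-values, and the summit position. Read totals are not in these lists, so depth is unknown apart from the ratio below.

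Summit pileups were recovered from the deposited fold and p-value, taking fold as (pileup + 1) over (background + 1) and the p-value as a Poisson tail. Whole pileups matched every peak within 0.05 of −log10 p. The depth ratio, 0.743, is that of the lowest backgrounds, 0.484 in All gRNA and 0.652 in No gRNA. Peaks overlapping by 1 bp were shared. Ratio intervals are exact conditional binomial, and a shared peak was called at 2-fold with the 95% interval excluding 1. Scripts used Python 3.11.15, pandas 2.3.3 and scipy 1.17.1, and were tested on simulated data. Genes came from GENCODE release 44.

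The members and lists were chosen with earlier results of these data known. Member sites were described or counted, and from other lists called peaks and one-library peaks within 1000 bp of a start were named, as were the 5 genes most like GJB5 by pileup. Windows, thresholds, overlap rules and depth scaling were varied. Some connexin sites, neighbouring genes and sequences are not reported here; counts include those sites.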

Additional observations from a re-analysis of the deposited data

How the results depend on the processing

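Alternatives were run for windows, thresholds, overlap and depth. Of 78 values, 49 equalled the reported one, stayed within 1.5 times of it with the same sign, or, for ratios, lay within its interval. An uncalled ratio inside its interval was counted among the 49 even where it crossed 1. The GJC1 ratio of 0.865, for example, was 1.07 as a ratio of folds. The 11 No gRNA connexin peaks became 17 with 50 kb windows, 4 within 4 kb of a start, 5 at −log10 q of at least 10 and 5 among the 50000 strongest peaks. The 15 All gRNA peaks became 6, 5 and 8 under the last 3 of these. The 1 No gRNA only peak became 4 with 50 kb windows, 0 at −log10 q of 5 or of 10, 2 when sharing needed a 50% overlap or summits within 150 bp, and 0 when gaps of up to 1000 bp were bridged. The 5 All gRNA only peaks became 3 within 4 kb and 3 at −log10 q of 10. The 1 called shared site became 0 with median-ratio scaling and 0 with the ratio of folds. The GJC1 coverage difference of −359 bp turned to 309 bp with the 50000 strongest peaks, and the cause was not tested. That of GJB5 stayed between 488 bp and 1133 bp, while that of GJA4 ran from 19 bp to 962 bp and that of GJA1 from 63 bp to 357 bp. No paired analysis was possible because there was a single library per group. Without replicates, differences between libraries and between conditions cannot be told apart.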
